A study of Homo sapiens with 6 samples.

Results

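The genes described are 26 genes of cholesterol synthesis and sterol regulation, taken by symbol from a table of 59151 genes, and all 26 had 1 row in it. Expression was measured by ribosomal RNA-depleted sequencing of total RNA from forebrain neuron progenitors collected on day 26, which the labels call H9-derived; H9 is an embryonic stem line of human origin in wide use. The first group carried shRNA2, which targets circRTN4(2,3), a circle of RNA spliced from RTN4. The second carried shRNA1, a different hairpin with the same target. The control group carried a scrambled hairpin, is labelled wild type, and was otherwise the same cells at the same day. Each group had 2 libraries. Whether replicates were grown apart is not in the labels; p-values here reflect the scatter of these libraries alone, which may be technical. All libraries come from 1 cell line, and values per gene do not give the level of the circular RNA itself.

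Cells make cholesterol from acetyl-CoA through mevalonate, isoprenoid units, squalene and lanosterol. When sterols are low in the endoplasmic reticulum, the escort protein SCAP carries the transcription factors encoded by SREBF1 and SREBF2 to the Golgi, where they are cut and released to switch on the pathway, and the INSIG proteins hold SCAP back when sterols are plentiful. The brain makes its own cholesterol, because lipoproteins in blood hardly cross the blood-brain barrier, and defects of several of these enzymes impair brain development.

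The values are FPKM, fragments scaled to gene length and to the size of the library, as deposited by the authors. The totals behind them, read from the steps of the lowest values, were 79949303 and 83629504 reads with shRNA2, 78488667 and 82353637 with shRNA1, and 46634855 and 77187298 in scramble, where replicate 1 was the shallowest library. For a transcript of 1 kb, a single read was worth 0.012 to 0.0214 FPKM, depending on the library. With the exon lengths of GENCODE v29, the values of the members stand for about 245.9 (PMVK) to 15480 (HMGCS1) reads per library. This is an approximation, since the gene lengths behind the deposited values were not available for this calculation. Neural progenitor markers passed the filter of a mean of 1 FPKM for 9 of 9 genes, with summed levels of 173 and 177 FPKM with shRNA2, 165 in both shRNA1 libraries, and 179 and 192 FPKM in scramble. All 8 neuron markers passed as well, at 417 and 419 FPKM with shRNA2, 484 and 489 with shRNA1, and 460 and 466 in scramble. The pluripotency genes POU5F1 and NANOG were under 0.1 FPKM in all 6 libraries. The 4 other pluripotency markers passed the filter and are described further on. RTN4 stood at 31.2 and 31.3 FPKM with shRNA2, 34.2 and 34.7 with shRNA1, and 40.3 and 38.5 in scramble, a knockdown difference of -0.26 on the log2 scale that did not pass (adjusted p = 0.135, limma). It stood at -0.09 after quantile normalization, and RTN4 was called without scramble replicate 1 (-0.22, adjusted p = 0.048) and after a correction for GC content and length described further on (-0.21, adjusted p = 0.0037, or 0.0151 with a replicate block; limma).

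The pathway was expressed at every step. HMGCS1, which makes HMG-CoA, was the highest member, with 36.4 and 37.9 FPKM with shRNA2, 40.0 and 40.0 with shRNA1, and 41.1 and 37.8 in scramble, and its mean lay at the 98.5th percentile of the protein-coding genes tested. SQLE (squalene epoxidase), FDFT1 (squalene synthase), MSMO1 (a sterol methyl oxidase), SREBF2 and LBR (a lamin B receptor that is also a sterol reductase) followed, with means of 22.3, 21.1, 20.05, 18.3 and 17.8 FPKM over the 6 libraries. The ranges of these 5 genes over the libraries overlapped between neighbours, so their order is not fixed by these data. ACAT2, the cytosolic thiolase that starts the pathway, averaged 11.5 FPKM and CYP51A1, the lanosterol demethylase, 9.85 FPKM.

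Levels differed more between genes of like function than between the groups of libraries. SREBF2, whose product mainly drives cholesterol genes, averaged 18.3 FPKM, and SREBF1, whose product mainly drives fatty acid genes, 1.68 FPKM. INSIG1, itself a target of the pathway, averaged 6.598 FPKM and INSIG2 2.47 FPKM. LBR and TM7SF2 encode enzymes of the same reductase step, and averaged 17.8 and 6.44 FPKM. The lowest members were MVK (mevalonate kinase), SREBF1 and HSD17B7 (a sterol ketoreductase), at 1.69, 1.68 and 1.93 FPKM. These 3 overlapped in range, and all 26 members passed the filter of a mean of 1 FPKM.

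**Figure D1:**
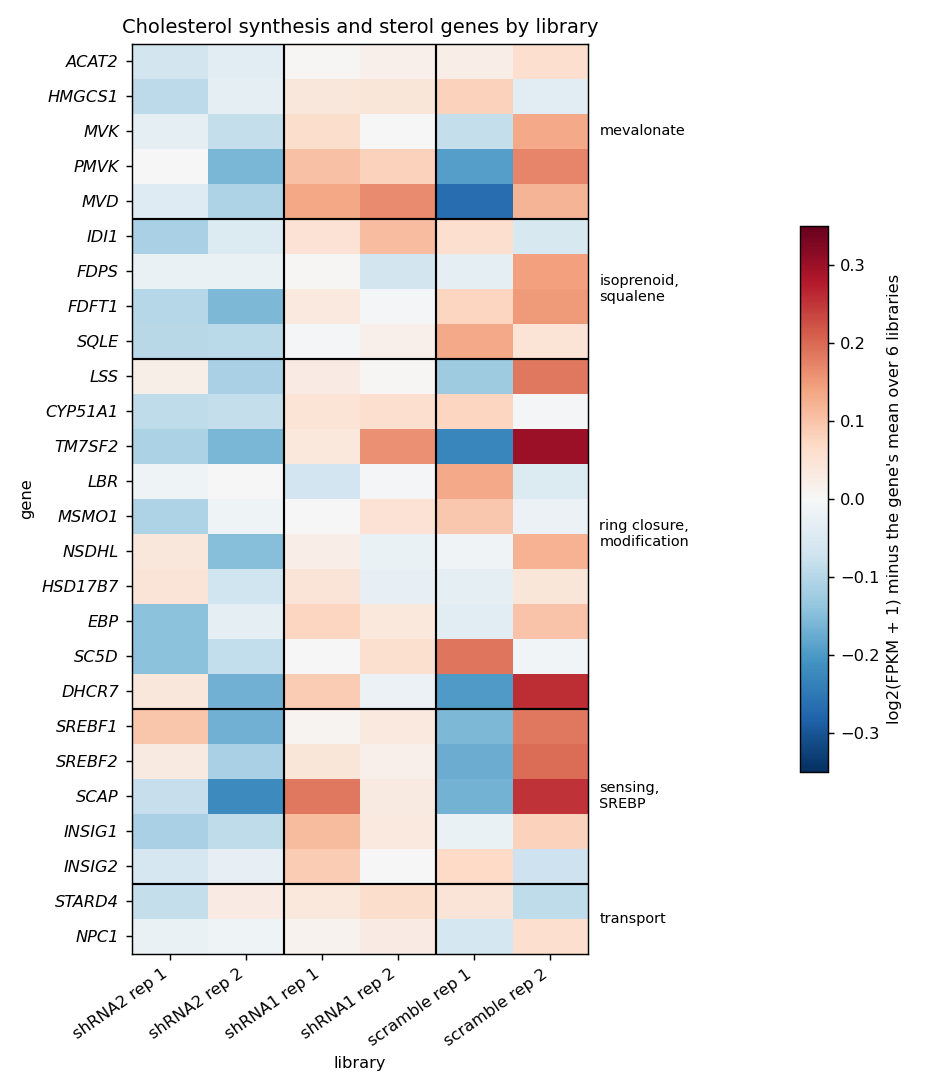
Deviation of log2(FPKM + 1) from each gene's own mean over the 6 libraries, by library (columns) and gene (rows, ordered by step of the pathway). Colours run from -0.35 (blue) to 0.35 (red). The columns of scramble replicates 1 and 2 differ most from each other, with opposite colours for genes such as TM7SF2, DHCR7 and MVD.

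The promoters of the members were searched for motifs used by regulators of this pathway, as a description of what the genes share. RefSeq sequences (GRCh38.p14, 250 bases before to 50 after the start) matched 23 of the 26 members. The core of the sterol regulatory element, TCACNCCAC, was present on either strand in 1 of 23, SREBF2, against 1.51% of 15843 protein-coding genes. CCAAT, the box bound by NF-Y, was present in 16 of 23 (69.6%), against 42.1% of protein-coding genes. GGGCGG, a box bound by Sp1, was present in 21 of 23 (91.3%), against 64.3%. No match in these windows says only that these letters are not there. A few upstream stretches of 150 bases are printed to show how these motifs lie before the regulator and before an early and a late enzyme of the mevalonate steps, with matches to the motifs in capitals (ATTGG is CCAAT, and CCGCCC is GGGCGG, on the other strand).
SREBF2, chr22:41832955-41833104, plus strand: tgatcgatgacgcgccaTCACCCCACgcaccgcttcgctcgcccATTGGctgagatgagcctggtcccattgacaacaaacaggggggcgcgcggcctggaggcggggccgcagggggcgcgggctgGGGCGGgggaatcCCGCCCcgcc
HMGCS1, chr5:43313413-43313562, minus strand: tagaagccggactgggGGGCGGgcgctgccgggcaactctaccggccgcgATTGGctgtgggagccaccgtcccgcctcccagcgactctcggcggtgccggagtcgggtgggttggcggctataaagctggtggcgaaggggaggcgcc
MVD, chr16:88663092-88663241, minus strand: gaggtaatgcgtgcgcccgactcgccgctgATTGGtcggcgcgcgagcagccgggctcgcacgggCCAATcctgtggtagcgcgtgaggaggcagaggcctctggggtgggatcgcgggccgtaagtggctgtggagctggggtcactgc

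In the knockdown comparison, which sets the mean of both hairpins against scramble, no member passed the test. Across all genes 15 of 18162 were called (0.0826%; limma on log2(FPKM + 1), Benjamini-Hochberg adjusted p under 0.05), 14 of them lower (0.0771%) and 1 higher (0.00551%), and 0 of the 26 members were. At an unadjusted p under 0.05 there were 2 of 26 members, FDFT1 and SQLE, against 13.8% of all tested genes. The log2 fold changes of the members ran from -0.17 for FDFT1 to 0.11 for MVD, with a median of -0.05 beside -0.03 over all tested genes and -0.05 over the protein-coding ones. Negative values were found for 21 of 26 members (80.8%), against 63.1% of all tested genes and 74.8% of protein-coding ones. Without scramble replicate 2 they were found for 12 of 26, after median-of-ratios scaling for 16 and after quantile normalization for 12. After the correction for GC content and length they were found for 8 of 26. The knockdown and scramble ranges did not overlap, with knockdown lower, for 3 members, FDFT1, SQLE and ACAT2, against 12.6% of all tested genes, and with knockdown higher for 0, against 5.87%. These are bulk values, in which fewer cells of a type and less RNA per cell cannot be told apart.

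Among the 5 early mevalonate genes, 3 values were negative and 2 positive. ACAT2 had 10.9 and 11.2 FPKM with shRNA2 and 11.5 and 11.7 with shRNA1, against 11.7 and 12.02 in scramble. The knockdown libraries lay just below the scramble ones without overlap, and the log2 fold change was -0.06 ± 0.040 (SE; 95% interval -0.16 to 0.04; adjusted p = 0.572, limma). ACAT2 overlaps TCP1 and SOD2 on the opposite strand, and whether counting used strand was not stated in the sources read. HMGCS1, given for its role at the entry of the pathway, stood at -0.03, with a 95% interval of -0.17 to 0.10. MVD, the mevalonate diphosphate decarboxylase, had 3.22 and 3.04 FPKM with shRNA2 and 3.78 and 3.88 with shRNA1, against 2.62 and 3.73 in scramble. Its scramble libraries spanned most of the range of the others, and the log2 fold change was 0.11 ± 0.113 (SE; adjusted p = 0.734, limma). MVK (1.53 to 1.94 FPKM over the 6 libraries) and PMVK (4.12 to 5.59 FPKM), the kinases between them, had both their lowest and their highest value in scramble.

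The 4 genes from isoprenoid units to squalene held the members with the smallest p. FDFT1, which joins farnesyl units into squalene, had 19.6 and 18.8 FPKM with shRNA2 and 21.6 and 20.95 FPKM with shRNA1, against 22.2 and 23.4 FPKM in scramble. All 4 knockdown libraries were below both scramble libraries, and the shRNA2 libraries were the lowest. The log2 fold change was -0.17 ± 0.047 (SE; 95% interval -0.29 to -0.05), which did not pass over all genes (adjusted p = 0.242, limma). SQLE, which oxidises squalene, had 20.7 and 20.8 FPKM with shRNA2 and 22.1 and 22.5 FPKM with shRNA1, against 24.5 and 23.0 FPKM in scramble. The groups did not overlap, with the same order of the means as for FDFT1, and the log2 fold change was -0.13 ± 0.045 (SE; 95% interval -0.25 to -0.02; adjusted p = 0.303, limma). Both values were smaller after quantile normalization, at -0.05 for FDFT1 and -0.020 for SQLE, and after the correction for GC content and length, at -0.10 for FDFT1 and -0.07 for SQLE. FDPS, the farnesyl diphosphate synthase, had 6.69 and 6.69 FPKM with shRNA2 and 6.84 and 6.47 FPKM with shRNA1, against 6.63 and 7.64 FPKM in scramble. Scramble replicate 1 lay among the knockdown libraries, and the log2 fold change was -0.08 ± 0.065 (SE; adjusted p = 0.644, limma). FDPS has 8 pseudogenes by name in GENCODE v29, so its reads cannot be assigned with certainty. IDI1, the isomerase of the isoprenoid units, was between 7.25 and 8.62 FPKM in all libraries. In RefSeq on GRCh38.p14, FDFT1 lies at chr8:11795582-11839298 and SQLE at chr8:124998505-125022283, both on the plus strand.

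**Figure D2:**
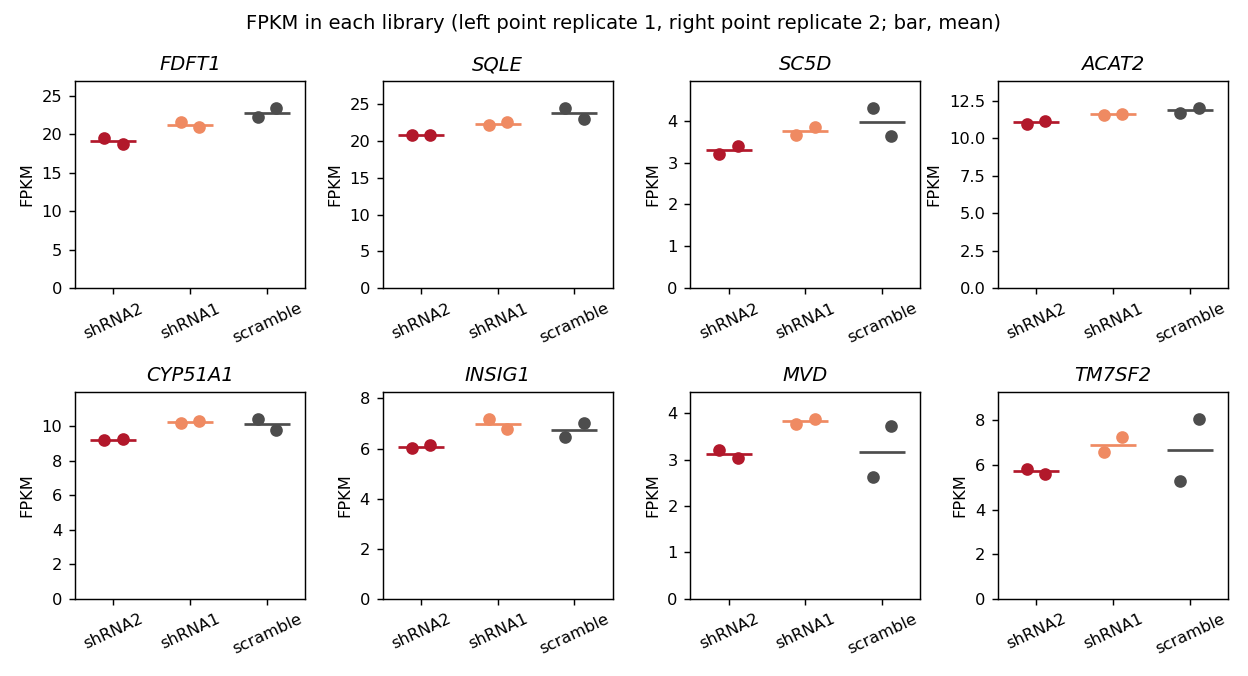
FPKM (vertical axis, from 0) of 8 members in each library, in the order shRNA2, shRNA1 and scramble; points are libraries and bars group means (n = 2). For FDFT1 and SQLE all knockdown points lie below both scramble points, while for MVD and TM7SF2 the scramble points lie far apart, at 2.62 and 3.73 FPKM and at 5.29 and 8.07 FPKM.

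Of the 10 genes that close and modify the sterol ring, all had negative values in the knockdown comparison, from -0.13 to -0.0056. Over all tested genes 63.1% were negative, and over the protein-coding ones 74.8%. None of the 10 were called, against 0.0826% of all tested genes. After the correction for GC content and length LSS, TM7SF2, DHCR7, EBP and HSD17B7 were positive, from 0.00074 to 0.097, and the others of this group negative. SC5D, a sterol desaturase, had 3.21 and 3.39 FPKM with shRNA2 and 3.66 and 3.85 FPKM with shRNA1, against 4.31 and 3.63 FPKM in scramble. Scramble replicate 2 lay below both shRNA1 libraries, and the log2 fold change was -0.13 ± 0.071 (SE; 95% interval -0.31 to 0.05; adjusted p = 0.496, limma). It was -0.033 without scramble replicate 1 and -0.23 without scramble replicate 2. DHCR7, the last reductase before cholesterol, had 4.52 and 3.78 FPKM with shRNA2 and 4.71 and 4.29 FPKM with shRNA1, against 3.67 and 5.42 FPKM in scramble, so that the control libraries enclosed all the others. TM7SF2 behaved alike, with 5.83 and 5.60 FPKM with shRNA2 and 6.57 and 7.25 FPKM with shRNA1, against 5.29 and 8.07 FPKM in scramble. TM7SF2 (chr11:65111872-65116230, plus strand) overlaps VPS51 on the same strand, so reads there cannot be assigned with certainty. SC5D lies at chr11:121292771-121313410, also on the plus strand. The remaining members of this group were LSS (lanosterol synthase, 3.41 to 4.46 FPKM), CYP51A1 (9.18 to 10.4), LBR (16.9 to 19.6), MSMO1 (18.5 to 21.5), NSDHL (a sterol dehydrogenase, 5.08 to 6.33), HSD17B7 (1.79 to 2.02) and EBP (a sterol isomerase, 3.24 to 4.01). CYP51A1 and HSD17B7 have pseudogenes by name, 3 and 2 of them. CYP51A1 also overlaps AC000120.2 and AC000120.3 on the same strand, so its reads cannot be assigned with certainty.

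None of the 5 regulators of the pathway passed in the knockdown comparison. SREBF2, given for its role, had 18.7 and 16.8 FPKM with shRNA2 and 18.8 and 18.5 FPKM with shRNA1, against 16.1 and 21.1 FPKM in scramble. The control libraries enclosed the 4 others, and the log2 fold change was -0.02 with a 95% interval of -0.31 to 0.27. SREBF1 had 1.86 and 1.38 FPKM with shRNA2 and 1.69 and 1.74 FPKM with shRNA1, against 1.40 and 2.04 FPKM in scramble. SCAP had 4.81 and 4.27 FPKM with shRNA2 and 5.98 and 5.29 FPKM with shRNA1, against 4.49 and 6.32 FPKM in scramble. For these genes, too, the scramble libraries lay at or near both ends. INSIG1 had 6.01 and 6.13 FPKM with shRNA2 and 7.19 and 6.77 FPKM with shRNA1, against 6.46 and 7.03 FPKM in scramble. Both shRNA2 libraries lay below both scramble libraries, and shRNA1 replicate 1 lay above them. INSIG2 was between 2.29 and 2.69 FPKM. The transport genes STARD4, a cytosolic sterol carrier, and NPC1, which moves cholesterol out of lysosomes, were at 3.70 to 4.22 and 2.33 to 2.62 FPKM, with log2 fold changes of 0.033 and 0.0018.

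**Figure D3:**
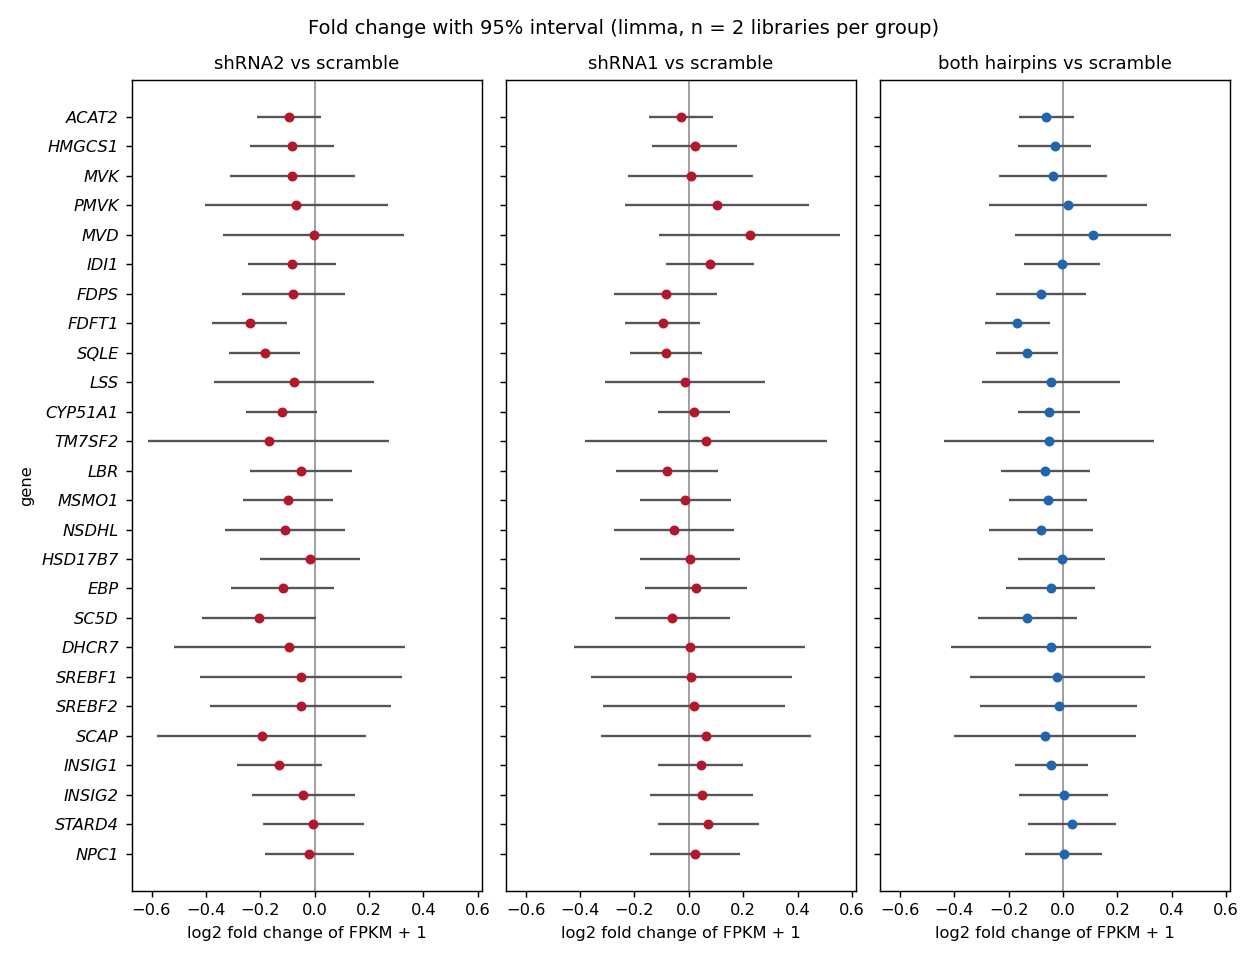
Log2 fold change of FPKM + 1 with its 95% interval from limma (horizontal axis) for the 26 genes (rows), for shRNA2, shRNA1 and both hairpins against scramble (n = 2 libraries per group). Most intervals include 0; with both hairpins those of FDFT1 (-0.29 to -0.05) and SQLE (-0.25 to -0.02) do not, before adjustment for the number of genes tested.

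With shRNA2 the values of all 26 members were negative and small, and 0 were called. Across all genes 114 of 18162 were called (0.628%; limma), 80 lower (0.44%) and 34 higher (0.187%). At an unadjusted p under 0.05 there were 2 of 26 members, against 19.2% of all tested genes. The median over the members was -0.08, beside -0.06 over all tested genes and -0.09 over the protein-coding ones, and 67.7% of all tested and 81.6% of protein-coding genes were negative. The sign was not shared by all members after rescaling. Median-of-ratios scaling left 16 of 26 negative, with a median of -0.01, and quantile normalization 13 of 26. After the correction for GC content and length 10 of 26 were negative, with a median of 0.012. Nor was the sign shared by all without scramble replicate 2 (14 of 26 negative), shRNA2 replicate 2 (20), scramble replicate 1 (23) or shRNA2 replicate 1 (25). Both shRNA2 libraries lay below both scramble libraries for 6 members (FDFT1, SQLE, SC5D, CYP51A1, INSIG1 and ACAT2), against 34.4% of all tested genes. FDFT1 stood at -0.24 ± 0.054 (SE; 95% interval -0.38 to -0.10; adjusted p = 0.129, limma), SQLE at -0.18 (adjusted p = 0.168), SC5D at -0.20 (adjusted p = 0.271), INSIG1 at -0.13 (adjusted p = 0.324) and CYP51A1 at -0.12 (adjusted p = 0.288; 0.02 after quantile normalization). Without scramble replicate 1, FDFT1 (-0.28, adjusted p = 0.0377) and TM7SF2 (-0.43, adjusted p = 0.0391) passed with limma, in a fit where 13.3% of all genes did; without scramble replicate 2, TM7SF2 stood at 0.09.

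With shRNA1 the members scattered around 0, and 0 of 26 were called, or had an unadjusted p under 0.05. Across all genes 6 were called (0.033%) and 8.97% had an unadjusted p under 0.05 (limma). The median of the members was 0.01, with 9 negative and 17 positive values, beside -0.003 over all tested genes, 51.1% of them negative. Without scramble replicate 1 the count turned to 17 negative and 9 positive values, with a median of -0.04. The members with the smallest p were FDFT1 at -0.10 (adjusted p = 0.701), MVD at 0.22 (adjusted p = 0.721), SQLE at -0.08 (adjusted p = 0.745), IDI1 at 0.08 (adjusted p = 0.835) and FDPS at -0.08 (adjusted p = 0.855). FDFT1, SQLE and ACAT2 lay below both scramble libraries in both shRNA1 libraries, against 18.9% of all tested genes, and MVD above both, against 15.8%. MVD was 0.032 without scramble replicate 1 and 0.42 without scramble replicate 2. The hairpin comparisons use the same 2 scramble libraries.

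Between the hairpins, the members were mostly lower with shRNA2 than with shRNA1, as were most genes, and 0 of 26 were called. No gene of the 18162 passed in this comparison (0%; limma), and 16.1% had an unadjusted p under 0.05, against 3 of 26 members. The fit took its spread from all 3 groups, scramble included. The median SD between replicates over all tested genes was 0.045 with shRNA2, 0.036 with shRNA1 and 0.109 in scramble, on the log2 scale. With only the 2 groups compared in the fit, many genes were called, as given further on, and 0 of 26 members. The median of the members was -0.09, beside -0.06 over all tested genes and -0.08 over the protein-coding ones, and 24 of 26 values were negative, against 66.9% of all tested genes and 77.2% of protein-coding ones. After median-of-ratios or quantile scaling, or without shRNA2 replicate 2, 18 of 26 were negative, and after the correction for GC content and length 15 of 26. The shRNA2 libraries lay below both shRNA1 libraries for 18 members, against 46.6% of all tested genes and 6135 of 10109 protein-coding ones. They lay above for 0 members, against 16.6% of all tested genes and 1306 of the protein-coding ones. INSIG1 had 6.01 and 6.13 FPKM with shRNA2, against 7.19 and 6.77 FPKM with shRNA1. That difference of -0.17 ± 0.061 (SE; 95% interval -0.33 to -0.02) did not pass (adjusted p = 0.278, limma). CYP51A1 had 9.18 and 9.23 FPKM with shRNA2, against 10.2 and 10.3 FPKM with shRNA1 (-0.14; adjusted p = 0.293, limma). FDFT1 differed by -0.14 (adjusted p = 0.302), EBP by -0.14 (adjusted p = 0.403) and IDI1, at 7.25 and 7.64 FPKM with shRNA2 against 8.24 and 8.62 FPKM with shRNA1, by -0.16 (adjusted p = 0.315). The groups did not overlap for any of these 5 genes.

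The largest differences among libraries lay between the scramble replicates, and followed the base composition of the transcripts. The median SD between replicates over the members was 0.0428 with shRNA2, 0.0315 with shRNA1 and 0.099 in scramble, on the log2 scale. Scramble replicate 2 minus replicate 1 ran from -0.20 for SC5D to 0.53 for TM7SF2. Across the 26 members this difference went with the GC content of the longest coding transcript (Pearson r = 0.944, Spearman rho = 0.946), which ranged from 34.2% in STARD4 to 65.6% in MVD. Across 10084 protein-coding genes tested, which come from the same libraries, r was 0.861. Genes are not independent replicates, and these correlations are given as descriptions. The same difference between replicates went with GC content at r = -0.713 with shRNA2 and -0.23 with shRNA1 over the members. The members rich in GC, such as TM7SF2, DHCR7, SCAP, SREBF1, SREBF2, PMVK and MVD, were those with the widest intervals in the comparisons with scramble. The scramble replicates also differed in depth, and the part of depth or of library preparation in these differences was not tested.

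**Figure D4:**
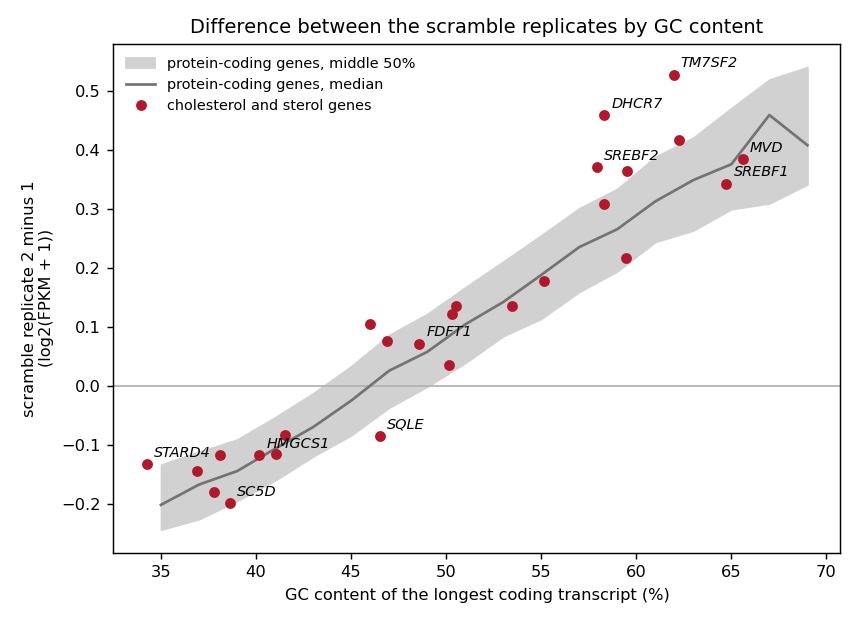
Scramble replicate 2 minus replicate 1 in log2(FPKM + 1) (vertical axis) against the GC content of the longest coding transcript in percent (horizontal axis). Points are the 26 genes, the line and band are the median and middle 50% of protein-coding genes in bins of GC content; the points follow the band, from -0.20 for SC5D to 0.53 for TM7SF2.

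A correction of each library for GC content and transcript length, chosen after this pattern was seen, brought the median SD between the scramble replicates over the members to 0.0259. After it 10.1% of 10084 protein-coding genes were called in the knockdown comparison, and 1 of 26 members, MVD, at 0.15 ± 0.033 (SE; adjusted p = 0.0317, limma). With shRNA1 7.69% were called, among the members MVD (0.19, adjusted p = 0.0271). With shRNA2 16.4% were called, among the members FDFT1 (-0.14, adjusted p = 0.0313) and SC5D (-0.14, adjusted p = 0.0401). Between the hairpins 19.5% were called and 0 of 26 members. In each comparison the share of members called was below that of all genes. None of these 4 calls passed when the replicate number was added as a block, and the median of the members in the knockdown comparison was 0.0071 after the correction.

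Other genes of sterol and lipid handling were not called either. Of 64 genes in 5 lists, 50 passed the filter, and 0 were called in any of the 4 comparisons (limma). In the knockdown comparison 5 of 50 had an unadjusted p under 0.05, against 13.8% of all tested genes. Negative values were found for 41 of 50, against 63.1% of all tested genes and 74.8% of protein-coding ones, and the median was -0.06. With shRNA2 14 of 50 (28.0%) had an unadjusted p under 0.05, against 19.2% of all tested genes. For 32 of 50 the shRNA2 values lay below scramble without overlap, against 34.4% of all tested genes and 4470 of 10109 protein-coding ones. The difference between these genes and the members was not tested. Of 12 tested genes of fatty acid synthesis and desaturation, 11 were negative. SCD, the stearoyl-CoA desaturase and a classic target of the SREBF1 product, had 40.0 and 39.6 FPKM with shRNA2 and 48.6 and 48.9 FPKM with shRNA1, against 52.2 and 54.7 FPKM in scramble. Its groups did not overlap, with the lowest values with shRNA2 and the highest in scramble. The log2 fold change was -0.27 ± 0.044 (SE) for the knockdown (adjusted p = 0.128, limma) and -0.42 with shRNA2 (adjusted p = 0.0548). It was called with shRNA2 when protein-coding genes were tested alone (adjusted p = 0.0188), without either scramble library (adjusted p = 0.026 and 0.0383) and after the GC and length correction (-0.32, adjusted p = 0.000926). In the knockdown comparison it was called after the correction (-0.22, adjusted p = 0.0042, or 0.0157 with the replicate block; limma). There SCD was not called after quantile normalization (-0.12, adjusted p = 0.455) or with the replicate block alone (adjusted p = 0.331, limma). Without scramble replicate 1 it stood at -0.31 and without scramble replicate 2 at -0.24. ACLY, which supplies acetyl-CoA in the cytosol, stood at -0.15 in the knockdown, with -0.25 without scramble replicate 1 and -0.06 without scramble replicate 2.

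In the remaining lists, 9 of 10 genes of SREBP processing and sterol-regulated degradation were negative, with a median of -0.05. Over all tested genes 63.1% were negative, and over the protein-coding ones 74.8%. RNF139 and FAF2, both of degradation at the endoplasmic reticulum, stood at -0.13 and -0.08. Of 11 tested genes of the isoprenoid branch 9 were negative, with DHDDS, of dolichol synthesis, at -0.13. Of 10 genes of efflux, LXR and oxysterols only ABCA1, the cholesterol exporter (-0.15), and NR1H2, which encodes the receptor LXR beta (0.0025), passed the filter. Of 15 tested genes of sterol transfer, storage and the lysosome 11 were negative. There TMEM97, a sterol-regulated membrane protein, had 10.8 and 11.3 FPKM with shRNA2 and 11.6 and 10.6 FPKM with shRNA1, against 13.3 and 13.0 FPKM in scramble. Its groups did not overlap (-0.23 ± 0.052, SE; adjusted p = 0.192, limma), and it was called after the GC and length correction (-0.17, adjusted p = 0.0312) but not with the replicate block added (adjusted p = 0.0567, limma). NPC2, the lysosomal partner of NPC1, stood at -0.17. Without scramble replicate 1 NPC2 was -0.26, DHDDS -0.21, RNF139 -0.07 and ABCA1 -0.10; without scramble replicate 2 NPC2 was -0.09, DHDDS -0.06, RNF139 -0.18 and ABCA1 -0.21.

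Summed levels of markers of several other cell types differed between the groups, though few of these genes passed the filter: 4 of 8 for choroid plexus and roof plate, 3 of 8 for oligodendrocytes, 2 of 6 for astrocytes, 4 of 6 for pluripotency and 1 of 6 for mesenchyme and endothelium. In the knockdown comparison the 4 tested choroid plexus and roof plate markers ran from -2.48 to 0.12, with 2 called lower (limma). The 2 tested astrocyte markers stood at -1.07 and 0.05, with 1 called lower. The 1 tested mesenchymal and endothelial marker stood at -1.77 and was called lower. Across all tested genes 0.0771% were called lower. The 4 tested pluripotency markers ran from 0.15 to 0.65, with 0 called. With shRNA2 they ran from 0.28 to 1.05, with 3 called higher, against 0.187% of all tested genes. No tested neural progenitor, neuron, oligodendrocyte or cycling cell marker was called in the knockdown comparison. The summed level of 8 choroid plexus and roof plate markers was 17.5 and 17.7 FPKM with shRNA2, 15.1 in both shRNA1 libraries, and 27.7 and 30.0 FPKM in scramble. That of 6 astrocyte markers was 11.6 and 12.01 FPKM with shRNA2, 11.5 and 11.3 with shRNA1, and 17.9 and 17.1 in scramble, with GFAP, AQP4 and ALDH1L1 under 0.1 FPKM throughout. The 6 pluripotency markers summed to 21.8 and 21.4 FPKM with shRNA2, 13.4 in both shRNA1 libraries, and 11.98 and 12.3 FPKM in scramble. Cycling cell markers summed to 96.4 in both shRNA2 libraries, 84.1 and 86.2 with shRNA1, and 108 and 101 in scramble. Oligodendrocyte lineage markers summed to 9.45 and 9.13 FPKM with shRNA2, 9.20 and 9.07 with shRNA1, and 8.50 and 10.4 in scramble. The 6 mesenchymal and endothelial markers summed to 0.361 and 0.28 FPKM with shRNA2, 0.951 and 0.80 with shRNA1, and 4.57 and 5.05 in scramble. Their part in the values of the sterol genes was not tested.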

How the data were processed

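The authors deposited FPKM values, 1 row per symbol and 1 column per library, as the file headers show. Trimmomatic 0.39, HISAT2 2.1.0, SAMtools 1.9, featureCounts 2.0.1 and the build GRCh38 (hg38) are named in the submitters' processing notes. The annotation, the use of strand and the handling of multi-mapping reads are not given in the sources used. Exons of other genes overlap 12 members on the opposite strand and 2 on the same strand, and 3 members have pseudogenes by name. The reads of such members are less certain. Library totals were read from single-exon genes of GENCODE v29, from the smallest steps of their values.

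The scale of analysis was log2(FPKM + 1), with no rescaling of libraries, and genes averaging 1 FPKM or more entered (18162); this scale understates the change of low genes. One model over the 3 groups was fitted in limma 3.58.1 under R 4.3.3 with a mean-variance trend, and p-values were adjusted by Benjamini-Hochberg over all tested genes. The fit was checked on simulated data for the knockdown comparison, with independent errors and 1 spread per gene for all groups. That check does not cover the pattern with GC content or the wider spread in scramble. The threshold for a call was an adjusted p of 0.05. Intervals are at 95% and cover the spread between libraries, with 1 estimate per gene shared by the 3 groups. The median SD between replicates was larger in scramble (0.109) than with shRNA2 (0.045) or shRNA1 (0.036), over all tested genes on the log2 scale. Intervals of the comparisons with scramble may therefore be too narrow. The comparisons share libraries. By rule, the 5 members with the smallest p per comparison, any called member, and the 2 related genes with the smallest p per list were named. One related gene that this rule names is not reported here. Members and lists were chosen with earlier results of these data known. Alternatives varied the pseudocount (0.1), the filter (a mean of 5, or none), the scaling, the genes tested, the trend, the samples fitted, a replicate block and the libraries left out; a correction by lowess for GC content and length of the longest coding transcript of GENCODE v29 (10084 genes) was added after the data were seen. Python 3.11.15, numpy 2.4.6, pandas 2.3.3 and matplotlib 3.10.9 were used.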

Additional observations from a re-analysis of the deposited data

How the results depend on the processing

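The call of 0 members in each comparison was kept under every alternative listed in the methods that used all 6 libraries, apart from the correction added later. Leaving out 1 library at a time gave 0 members in each comparison except shRNA2 against scramble, where it gave 0 to 2. The correction for GC content and length, added later, gave 1 member for the knockdown, 1 with shRNA1 and 2 with shRNA2, and none with the replicate block added.

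Counts over all genes moved far more. For the knockdown, 15 genes became 35 at a mean of 5 FPKM, 0 with no filter, 28 with median-of-ratios scaling, 30 with quantile normalization, 102 among protein-coding genes alone, and 1 with the replicate block. After the correction they became 1019, or 666 with the replicate block, and 0 to 507 with 1 library left out. With shRNA1, 6 became 2 at a pseudocount of 0.1, 3 at a mean of 5 FPKM, 22 among protein-coding genes, 0 with no filter, with the replicate block or with only the groups compared, 775 after the correction, 444 with the replicate block added, and 0 to 1 with 1 library left out. With shRNA2, 114 became 261 at a mean of 5 FPKM, 379 among protein-coding genes, 71 with quantile normalization, 35 without the trend, 1 with only the groups compared, 0 with no filter or with the replicate block, 1650 after the correction, 1164 with the replicate block added, and 0 to 2418 with 1 library left out. Between the hairpins, 0 became 46 at a mean of 5 FPKM, 241 among protein-coding genes, 957 with only the groups compared, 1970 after the correction, 1534 with the replicate block added, and 0 to 1029 with 1 library left out. Fits without a scramble library take the spread from the other groups. The labels do not state whether libraries of the same number were paired. Deviations of same-numbered libraries from their group means correlated over genes at 0.012, -0.15 and -0.008. These correlations cannot decide the question, since the deviations in scramble went with GC content. The replicate block changed no call of a member in the fits without the correction.

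Values of several named genes changed sign, and for some of them the values without either scramble library are given side by side. After the correction 13 of 26 members changed sign in the knockdown. In the knockdown, quantile normalization gave ACAT2 0.025, HMGCS1 0.14, SREBF2 0.094 and NR1H2 -0.024, and with shRNA2 it gave CYP51A1 0.016. Median-of-ratios scaling gave HMGCS1 0.011 and SREBF2 0.026. The correction, with or without the replicate block, gave ACAT2 0.0029, FDPS 0.0056, HMGCS1 0.011 and SREBF2 0.032. Without scramble replicate 1 HMGCS1 was 0.027, MVD -0.082, NR1H2 -0.11, SREBF2 -0.20 and, with shRNA2, TM7SF2 -0.43. Without scramble replicate 2 HMGCS1 was -0.090, MVD 0.30, NR1H2 0.11, FDPS 0.0072 (0.0038 with shRNA1), SREBF2 0.17 and, with shRNA2, TM7SF2 0.094. Without shRNA2 replicate 2 SREBF2 was 0.020; without shRNA2 or shRNA1 replicate 1 NR1H2 was -0.019 and -0.00097. The causes were not tested. The median of the members ranged from -0.094 to 0.0085 in the knockdown, from -0.17 to -0.05 with shRNA2, from -0.042 to 0.031 with shRNA1 and from -0.12 to -0.093 between the hairpins when 1 library was left out.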
